A study of Mus musculus with 288 samples.

Results

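The glucocorticoid receptor and 7 of its classical targets and partners were followed across 6 mouse tissues after 7 days of intermittent hypoxia (IH). The set held 8 of the 35904 genes in the expression tables and was chosen by gene symbol: Nr3c1, Fkbp5, Tsc22d3, Sgk1, Zbtb16, Klf9, Dusp1 and Hsd11b1. All 8 had 1 row in each table, and all 8 passed the filter of a mean of 1 TPM, the length-corrected share of transcripts, in every tissue. The animals were wild-type male C57BL/6J mice, 8 weeks old. One group breathed normal air throughout (normoxia), and the other was given repeated cycles of low oxygen during the light phase, as in obstructive sleep apnea. Both groups then spent 2 days in constant darkness in normal air before tissue collection, so no library was taken during hypoxia. Lung, liver, kidney, muscle, heart and cerebellum were each collected at 8 times, every 3 h from 1:30 to 22:30 h, with 3 replicates per time and treatment. This gave 24 bulk RNA libraries per tissue and treatment, 48 per tissue. The labels do not record which libraries of different tissues share a mouse, and libraries were treated as independent.

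Corticosterone, the glucocorticoid of mice, is secreted in a daily rhythm that peaks before the active phase and rises further under stress. It binds the glucocorticoid receptor, encoded by Nr3c1, which is held in the cytoplasm by HSP90 and its cochaperones and then moves to the nucleus to bind glucocorticoid response elements. The enzyme encoded by Hsd11b1 regenerates active hormone inside cells from its inert keto form. Fkbp5 encodes a cochaperone that lowers the hormone affinity of the receptor, and its induction closes a negative feedback loop. Tsc22d3 encodes the anti-inflammatory leucine zipper protein GILZ, and Dusp1 encodes a phosphatase that switches off MAP kinases. Sgk1 encodes a kinase that regulates ion transport, and Zbtb16 and Klf9 encode zinc finger transcription factors.

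In the mm10 build, Fkbp5 spans chr17:28399094-28517527 and Dusp1 spans chr17:26505590-26562128, both on the reverse strand. Hsd11b1 (chr1:193221634-193264075), Zbtb16 (chr9:48654297-48836222) and Tsc22d3 (chrX:140539528-140600659) also lie on the reverse strand. Sgk1 (chr10:21882184-21999903) and Klf9 (chr19:23141226-23168134) lie on the forward strand. RefSeq promoters in the GRCm38.p6 assembly, which is mm10, matched 6 of the 8 members, with 13 transcription starts in all. The 250 bases upstream of each start were searched on both strands for 4 motifs. The glucocorticoid response element was searched as GNACANNNTGTNC, its single arm as AGAACA, the clock E-box as CACGTG and the cAMP element core as TGACG. The full response element was found in 1 of the 13 promoters, an Sgk1 start, and in 0.387% of all 32851 promoters. The single arm was in 4 of the 13 and in 16.1% of all promoters, the E-box in 3 and 6.02%, and the cAMP core in 4 and 17.8%. Several of these starts belong to Sgk1. Counted by gene, the single arm was in 2 of 6 members and 18.2% of 27025 genes. The E-box was in 3 and 6.86%, the cAMP core in 4 and 19.8%, and the full element in 1 and 0.440%. The following 4 promoters are shown because they belong to the members whose daily profiles carry the results and hold these motifs, with every match in capitals, written 5′ to 3′ in the direction of transcription.
Sgk1 promoter (chr10:21993640-21993889, forward strand): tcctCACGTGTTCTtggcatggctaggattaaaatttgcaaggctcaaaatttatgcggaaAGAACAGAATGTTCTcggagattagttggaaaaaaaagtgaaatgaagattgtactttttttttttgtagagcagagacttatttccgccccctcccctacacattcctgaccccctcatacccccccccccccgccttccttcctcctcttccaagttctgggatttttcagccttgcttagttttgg
Dusp1 promoter (chr17:26508473-26508722, reverse strand): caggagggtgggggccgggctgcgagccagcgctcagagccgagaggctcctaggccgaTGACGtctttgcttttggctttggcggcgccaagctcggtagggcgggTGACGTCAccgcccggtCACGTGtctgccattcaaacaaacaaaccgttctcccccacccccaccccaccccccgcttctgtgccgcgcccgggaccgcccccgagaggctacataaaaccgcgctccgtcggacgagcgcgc
Fkbp5 promoter (chr17:28486150-28486399, reverse strand): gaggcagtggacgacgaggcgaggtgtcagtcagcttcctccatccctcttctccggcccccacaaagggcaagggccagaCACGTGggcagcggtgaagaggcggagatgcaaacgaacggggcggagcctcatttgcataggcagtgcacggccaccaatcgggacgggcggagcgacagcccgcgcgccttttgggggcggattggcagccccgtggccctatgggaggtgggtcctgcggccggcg
Tsc22d3 promoter (chrX:140600523-140600772, reverse strand): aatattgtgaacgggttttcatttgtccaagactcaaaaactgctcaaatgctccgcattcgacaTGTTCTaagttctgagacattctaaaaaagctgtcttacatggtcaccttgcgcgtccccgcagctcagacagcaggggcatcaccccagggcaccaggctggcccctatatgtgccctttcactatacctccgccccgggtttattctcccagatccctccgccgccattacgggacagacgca
In the Sgk1 promoter the full element lay at -188 to -176 from the start and overlapped an arm on each side. Another arm at -242 to -237 shared bases with the E-box at -246 to -241. In the Dusp1 promoter a pair of overlapping cAMP cores at -143 to -136 stood next to the E-box at -126 to -121. The Fkbp5 promoter held 1 E-box at -169 to -164, and the Tsc22d3 promoter held 1 single arm at -185 to -180. These are matches of letters only, and receptor binding was not measured.

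Marker genes placed the libraries in their labelled tissues, with departures in liver, lung, cerebellum, muscle and kidney. The liver library of IH replicate 2 at 13:30 h had a median correlation of 0.693 with the other liver libraries, and its heart markers summed to 29.0% of their level in heart. In liver, all libraries of replicate 3 lay above or below all those of replicates 1 and 2 for 14.8% of genes in normoxia and 12.8% after IH. Cerebellum libraries held heart markers of 37.4 to 10220 TPM, and the IH replicate 3 library at 1:30 h reached 33.2% of the level in heart. Lung markers in the lung summed to 174080 ± 23192 TPM in normoxia (lowest 136150) and 127190 ± 56562 after IH (lowest 34681), and heart markers there to 300 ± 98.6 and 502 ± 160. Their part in the lung differences was not tested. Muscle libraries held heart markers of up to 9.92% of the level in heart. Kidney libraries held adrenal cortex markers of up to 124 TPM. The IH fits and rhythm calls within a tissue were repeated without that liver library and without cerebellum libraries high in heart markers. Those values are given where a result turns on them. No lung, muscle or kidney library was left out for its markers, so their part in the results was not tested. Fewer cells of one type and less RNA per cell cannot be told apart in bulk tissue.

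On TPM as deposited, the receptor gene was most abundant in the lung. In normoxia Nr3c1 ran from 32.0 to 66.4 TPM there, with a median of 54.8. The muscle mean followed at 32.9 ± 6.69 TPM (SD, n = 24), then the cerebellum at 22.9 ± 4.66 and the kidney at 22.1 ± 4.49. The cerebellum and kidney did not differ beyond their spread (adjusted p = 0.541, permutation test of neighbouring tissues). Liver and heart were lowest, with means of 17.6 and 16.3 TPM that likewise did not differ (adjusted p = 0.497). With all libraries scaled together the order became muscle, lung, liver, heart, kidney and cerebellum, with means of 36.2, 32.2, 29.5, 22.0, 21.4 and 17.2. In the normoxic liver the receptor split by replicate number, with 11.6 to 17.1 TPM in replicates 1 and 2 and 22.9 to 29.8 TPM in replicate 3. It was 1 of the 14.8% of liver genes that did so, and it did not split after IH, where 12.8% of genes did. No other member separated in that way in any tissue, and outside the liver at most 0.764% of genes did.

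Hsd11b1 had the widest range among tissues. Its normoxic mean was 462 ± 39.9 TPM in the liver, 167 ± 35.1 in the lung and 131 ± 26.9 in the kidney. It was 62.3 ± 15.6 TPM in the cerebellum, 33.9 ± 11.7 in the muscle and 13.3 ± 3.98 in the heart. Every neighbour in that order differed (adjusted p of 0.000141 or less, permutation test). Over the 8 members, 29 of 40 such neighbours differed.

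The targets were ordered differently from the receptor. Fkbp5 was highest in the kidney, at 43.6 ± 17.9 TPM, where Nr3c1 was of middle rank, and lowest in the cerebellum at 5.82 ± 2.42. Tsc22d3 was highest in the lung and muscle, at 152 and 143 TPM, and these did not differ (adjusted p = 0.497, permutation test). Zbtb16 had its highest means in the muscle and lung, at 19.6 and 17.2 TPM, and was at 1.56 TPM in the kidney. Sgk1 was highest in the muscle, at 77.7 TPM, and lowest in the liver, at 7.87. Klf9 was highest in the cerebellum, at 97.6 TPM, and Dusp1 in the lung, at 83.3. TPM values are shares of a library, and scaling all libraries together put muscle ahead of lung for Nr3c1, Tsc22d3 and Dusp1, and kidney ahead of lung for Hsd11b1. It also put muscle, liver and kidney ahead of lung for Klf9 and heart ahead of lung for Fkbp5. For Sgk1 it put heart ahead of kidney and cerebellum, and only Zbtb16 kept its whole order.

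**Figure D1:**
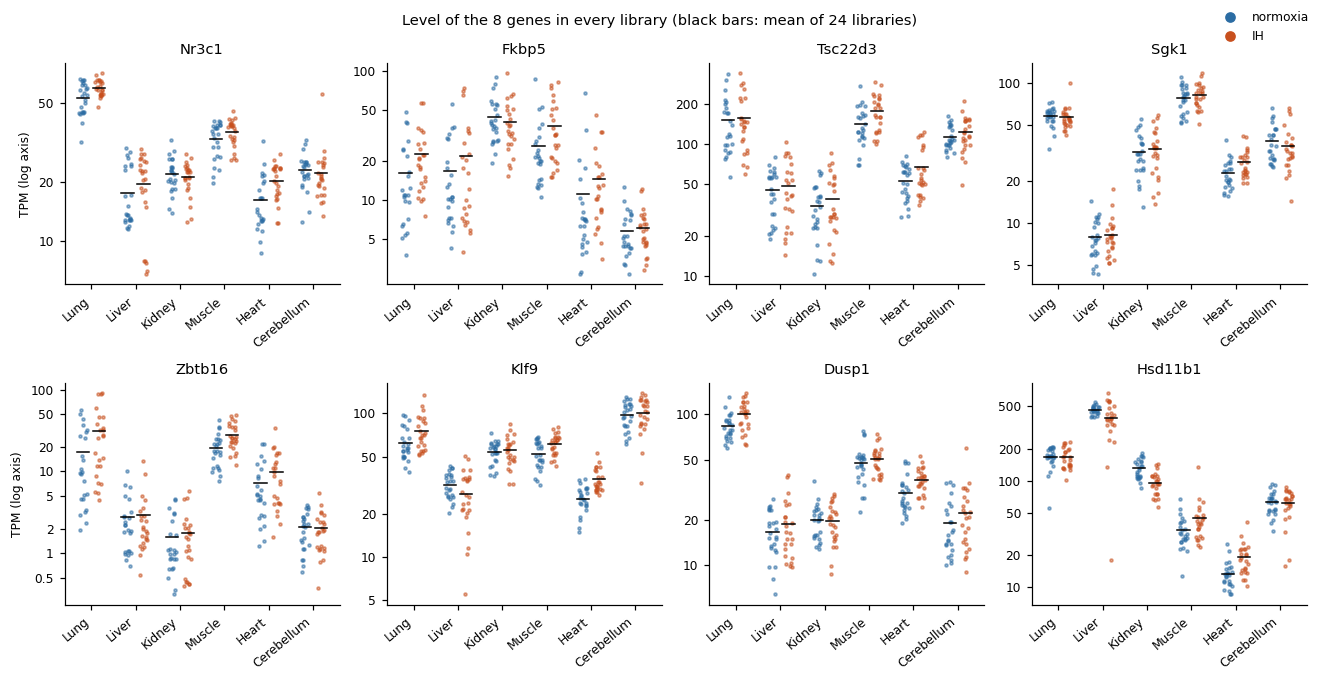
TPM of the 8 genes on a log axis (vertical) by tissue (horizontal), 1 point per library and 24 points per tissue and treatment, with normoxia and IH in separate colors and a bar at each mean. Hsd11b1 falls from a mean of 462 TPM in the normoxic liver to 13.3 in the heart, and no member is at 0 in any library.

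IH was compared with normoxia within each tissue over all 24 hours, and a gene counted as changed at an adjusted p of 0.05 or less and a 1.5-fold difference in limma. By that rule, 0 of the 48 pairs of member and tissue changed. Of all lung genes tested, 9.09% rose and 4.39% fell by it. The shares that rose and fell were 1.1% and 2.55% in the liver, 0.25% and 0.125% in the muscle and 0.411% and 0.372% in the kidney. They were 1.1% and 1.85% in the heart and 1.48% and 1.16% in the cerebellum. By adjusted p alone 8 of the 48 pairs passed, and without adjustment 10 pairs had p at or under 0.05. Those 8 pairs were 3 members in the lung, 1 in the kidney, 1 in the muscle and 3 in the heart, with none in the liver or cerebellum. By adjusted p alone 70.4% of lung genes passed, 45.2% of heart genes, 24.2% of liver genes, 19.8% of kidney genes, 15% of cerebellum genes and 10.4% of muscle genes. In the lung, 3 of 8 members is a smaller share than that of all genes, and the difference in share was not tested.

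The activating enzyme differed between treatments in 3 tissues, and not in the same direction. In the kidney Hsd11b1 ran from 85.3 to 181 TPM with a median of 129 in normoxia, and from 57 to 144 with a median of 92.7 after IH. The ranges overlapped, and the log2 difference was -0.42 ± 0.09 (SE, limma adjusted p = 0.00092). That difference was -0.03 in replicate 1, -0.30 in replicate 2 and -0.92 in replicate 3, and without replicate 3 it was -0.17 (adjusted p = 0.21). In the heart it ran from 8.47 to 25.3 TPM with a median of 12.8 in normoxia and from 10.1 to 41.0 with a median of 18.1 after IH. The log2 difference was 0.37 ± 0.10 (adjusted p = 0.0015), and all 3 replicate numbers had it above 0.

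Hsd11b1 in the liver, its tissue of highest level, spread far more after IH. Normoxic values ran from 394 to 548 TPM, with a median of 459.7. After IH they ran from 17.9 to 664 TPM with a median of 382, and the lowest was the library with heart markers. The log2 difference was -0.31 ± 0.17 (adjusted p = 0.19). Replicates 1 and 2 gave -0.50 and -0.69 and replicate 3 gave 0.23, and without replicate 3 the gene fell by 0.59 (adjusted p = 0.048) and passed both thresholds. Without the library with heart markers the difference was -0.16 (adjusted p = 0.24). In the lung the log2 difference of Hsd11b1 was -0.30 ± 0.10 (adjusted p = 0.0070) but 0.00 on TPM as deposited, and it was -0.21 without replicate 1 (adjusted p = 0.19).

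The receptor gene itself passed the adjusted p in the heart and lung. In the heart Nr3c1 had a median of 14.4 TPM in normoxia (8.72 to 32.3) and 20.8 after IH (12.4 to 27.6), a log2 difference of 0.23 ± 0.06 (adjusted p = 0.0010). In the lung the difference was -0.12 ± 0.05 (adjusted p = 0.027) once libraries were scaled, and 0.18 on TPM as deposited. Its lung TPM medians were 54.8 in normoxia and 59.0 after IH, and the median log2 difference of all lung genes was -0.08 scaled and 0.21 as deposited. Without replicate 1 neither call held, at 0.13 in the heart (adjusted p = 0.099) and -0.01 in the lung (0.87). In liver, kidney, muscle and cerebellum its log2 differences were 0.21, -0.02, 0.04 and -0.06, none past the test.

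Among the targets, Sgk1 had the smallest adjusted p. In the lung its TPM medians were 59.2 in normoxia and 54.8 after IH, and the scaled log2 difference was -0.34 ± 0.06 (adjusted p = 7.8e-06). It was -0.47, -0.41 and -0.17 in the 3 replicates, but -0.04 on TPM as deposited and -0.01 with genes detected in the fit. The number of genes detected itself differed between treatments in the lung, with means of 22694 in normoxia and 25455 after IH. Zbtb16 in the muscle ran from 7.58 to 43.0 TPM with a median of 17.6 in normoxia and from 12.1 to 48.5 with a median of 25.7 after IH. Its log2 difference was 0.46 ± 0.15 (adjusted p = 0.035), with 0.10, 0.60 and 0.70 in the 3 replicates. It did not pass without replicate 2 (0.40, adjusted p = 0.31) or replicate 3 (0.35, 0.24). Klf9 in the heart had medians of 25.6 and 32.1 TPM and a difference of 0.32 ± 0.09 (adjusted p = 0.0022). Dusp1, Fkbp5 and Tsc22d3 passed in no tissue.

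Fkbp5 and Zbtb16 had the largest lung values without passing the test. The Zbtb16 median was 9.72 TPM in normoxia (1.95 to 57) and 26.4 after IH (4.42 to 90.1), a log2 difference of 0.66 ± 0.38 (adjusted p = 0.12). For Fkbp5 the median was 11.0 TPM in normoxia (3.80 to 48.3) and 19.6 after IH (7.55 to 56.6), a difference of 0.32 ± 0.24 (adjusted p = 0.23). The Zbtb16 difference was 0.02, 0.48 and 1.42 in replicates 1 to 3, and that of Fkbp5 was -0.07, 0.05 and 0.95. On TPM as deposited both passed both thresholds, with 0.94 and 0.61 (adjusted p = 0.026 and 0.024).

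In the heart all 8 members had a log2 difference above 0, from 0.13 for Sgk1 to 0.46 for Fkbp5. Their median was 0.27, against 0.04 over all genes tested. In the muscle, 7 of 8 were above 0, with a median of 0.20 against 0.00. The lung, liver, kidney and cerebellum medians were -0.09, 0.17, 0.03 and -0.01, against -0.08, -0.01, -0.01 and -0.01 over all genes. Endothelial markers in the heart summed to 208 ± 54.8 TPM in normoxia and 299 ± 47.8 after IH, and adipocyte markers to 278 ± 337 and 466 ± 373, and their part in these values was not tested. After how many genes each library detected was added to the fit, Nr3c1 and Klf9 in the heart no longer passed (0.05 and 0.30, adjusted p = 0.79 and 0.26). That number itself ran from 22988 to 28331 in normoxia and from 20316 to 22793 after IH, without overlap. Of all heart genes, 113 were higher and 144 lower by adjusted p in that fit, against 3573 and 2207 without the term. Its part and that of treatment therefore cannot be told apart there.

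**Figure D2:**
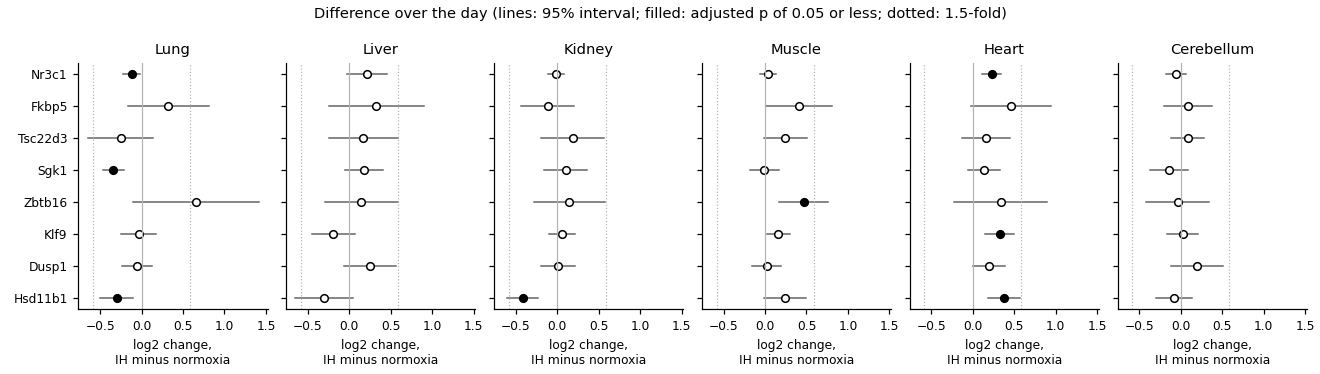
Log2 difference of IH against normoxia (horizontal) for each gene (vertical) in the 6 tissues, with 95% intervals from limma and filled points where the adjusted p is 0.05 or less. The 8 filled points lie in lung, kidney, muscle and heart, and all 8 heart values are above 0.

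The IH response differed between tissues for 4 of the 8 members, in a single fit over all libraries of the 6 tissues, scaled together. These were Hsd11b1 (adjusted p = 4.2e-06), Nr3c1 (8.0e-05), Sgk1 (0.00097) and Klf9 (0.0061), by limma F tests. Dusp1, Fkbp5, Tsc22d3 and Zbtb16 did not pass (adjusted p = 0.19, 0.44, 0.24 and 0.59). Of all genes tested, 82.3% passed, so a count of 4 in 8 is below the background.

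The wider pathway was read from 5 lists of genes, given as counts. In the lung 2 of 10 receptor chaperones fell: Hsp90aa1, the inducible HSP90 (-0.75, adjusted p = 0.00032), and Stip1, which couples HSP70 to HSP90 (-0.65, adjusted p = 0.00020). Of 26 other induced genes tested there, 1 fell by both thresholds, the metallothionein gene Mt2 (-0.67). By adjusted p alone 8 chaperones were lower, and 15 of the other induced genes were lower and 3 higher. Of all 15426 lung genes tested, 6400 were lower and 4464 higher by it. In replicate 3 alone Hsp90aa1 stood at -0.28 and Stip1 at -0.13 (adjusted p = 0.29 and 0.64). Stip1 was under 1.5-fold without replicate 1 (-0.50) or without replicate 2 (-0.54), as was Mt2 without replicate 2 (-0.56). In the liver the corticosteroid carrier globulin gene Serpina6 fell by 0.86 and the steroid hydroxylase Cyp3a11 fell by 0.60, 2 of 6 metabolism and transport genes. Mt2 in the liver rose by 1.29. Serpina6 ran from 78.7 to 286 TPM in normoxia and from 2.28 to 254 after IH, with medians of 134 and 69.1. Without the library that stands apart, Serpina6 was at -0.70 and Cyp3a11 at -0.42, under 1.5-fold. In replicate 3 alone Serpina6 was at -0.14, and none of these 3 liver calls held without replicate 1 or without replicate 2 (adjusted p of 0.16 to 0.32). No gene of these lists changed by both thresholds in kidney, muscle, heart or cerebellum, where 12 of 56, 3 of 52, 24 of 56 and 2 of 51 passed by adjusted p alone, against 19.8%, 10.4%, 45.2% and 15% of all genes. In the lung 38 of 59 passed by it, 30 lower and 8 higher, and in the liver 13 of 57, against 70.4% and 24.2%. None of the inflammatory genes repressed by the receptor changed in any tissue by both thresholds. In the lung 5 of 8 were lower and 0 higher by adjusted p alone, where 6400 of all 15426 genes were lower and 4464 higher. In the heart 11 of 26 other induced genes were higher and 0 lower by adjusted p alone. Of all 12779 heart genes tested, 3573 were higher and 2207 lower by it, and the difference in share was not tested. The median log2 difference of these 26 genes was 0.25 against 0.04 over all genes. On TPM as deposited the 3 lung genes were under 1.5-fold, with Hsp90aa1, Stip1 and Mt2 at -0.44, -0.35 and -0.37. With genes detected in the fit, a number that itself differed between treatments in the lung, they stood at 0.21, 0.21 and -0.16 and did not pass. On TPM as deposited Mt2 in the liver had an adjusted p of 0.062.

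Several members followed a daily rhythm. A gene counted as rhythmic when a rank test against 24-hour cosine curves (JTK) gave an adjusted p of 0.05 or less and a cosine fit a p of 0.05 or less. By that rule 12 of the 48 pairs of member and tissue were rhythmic in normoxia and 10 after IH, with 6 rhythmic in both. In the lung 4 members were rhythmic in normoxia and 2 after IH, against 2.81% and 4.39% of all genes. In the liver the counts were 3 and 1, against 8.65% and 3.55%, and in the kidney 3 and 1, against 5.95% and 0.925%. Muscle and heart each had 1 in normoxia and 3 after IH, against 0.889% and 2.23% of genes in the muscle and 0.304% and 1.08% in the heart. None was rhythmic in the cerebellum, where 0% of genes passed in normoxia and 0.00468% after IH. There 4 and 2 members passed by the cosine p alone, whose share over all genes was not counted. The counts rest on all 3 replicates: leaving out 1 of them, which leaves 16 libraries a group, gave 2 to 4 pairs in normoxia and 2 after IH. A limma cosine fit gave 19 under each treatment. In normoxia it passed 1288 of 19870 lung genes, 2070 of 14456 liver genes and 2713 of 14666 kidney genes. It also passed 798 of 15136 in muscle, 87 of 15760 in heart and 0 of 21287 in cerebellum. After IH it passed 677 of 20089, 323 of 14455 and 765 of 14675 in lung, liver and kidney. In muscle, heart and cerebellum it then passed 1120 of 15125, 535 of 15724 and 2 of 21182.

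Tsc22d3 was rhythmic in 5 of 6 tissues under both treatments. In the normoxic lung its 3 libraries read 306, 342 and 201 TPM at 10:30 h and 85.8, 56.4 and 98.2 at 1:30 h. The highest and lowest times here and below were picked from these same values, so their gaps and ratios are descriptions and no test. After IH the same times gave 213, 222 and 345 TPM and 68.8, 59.8 and 86.2. The mean at the highest time was 3.53 times that at the lowest in normoxia and 3.63 times after IH. In the kidney the highest normoxic time, 13:30 h, read 46.8, 60.7 and 58.2 TPM and the lowest, 1:30 h, read 23.0, 12.9 and 10.3. Fitted peaks of Tsc22d3 fell between 12.5 and 17.4 h in these 5 tissues, and the amplitude was 32.6% to 62.1% of the mean. In the cerebellum its relative amplitude was 17.9% in normoxia and 28.0% after IH, and the rank test did not pass.

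Fkbp5 followed with 3 tissues under each treatment. In the normoxic liver it read 29.9, 32.3 and 55.0 TPM at 13:30 h and 4.30, 6.30 and 10.6 at 4:30 h, a ratio of means of 5.54. After IH the liver had its highest mean at 10:30 h, with 20.4, 33.3 and 69.8 TPM, and its lowest at 1:30 h, with 5.61, 5.87 and 6.5. That IH profile did not pass (adjusted p = 0.185), but without the library with heart markers it did (adjusted p = 0.0232). In the lung the amplitude was 73.4% ± 17 of the mean in normoxia and 56.9% ± 12.4 after IH (SE of the fit, 24 libraries each). In the heart Fkbp5 was rhythmic after IH and not in normoxia, where 1 library at 7:30 h read 67.3 TPM beside 6.99 and 3.85. Its fitted peaks, where rhythmic, fell between 11.6 and 16.3 h.

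**Figure D3:**
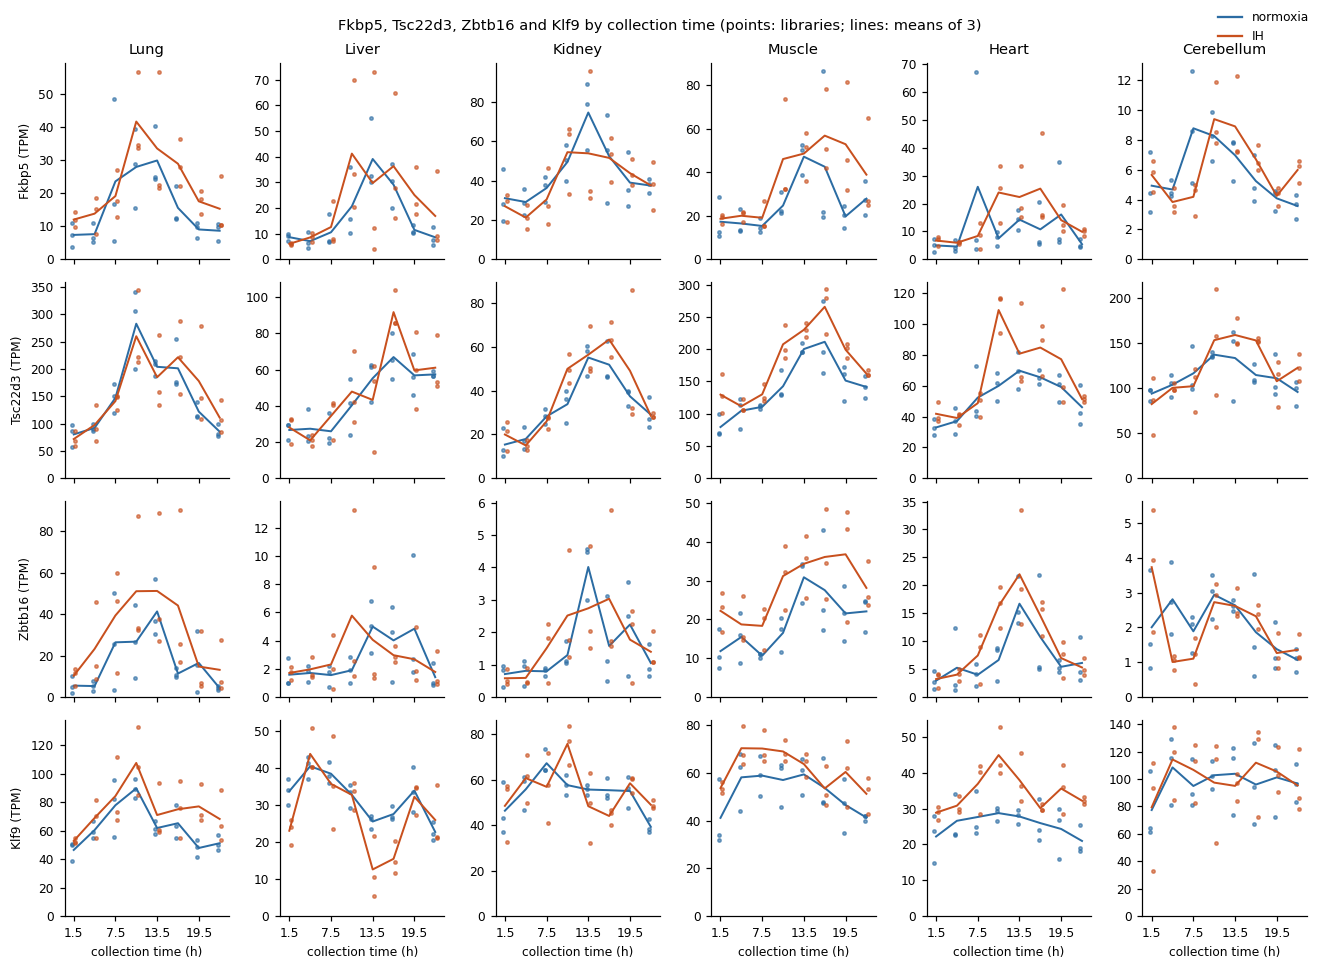
TPM (vertical) by collection time in hours (horizontal) for Fkbp5, Tsc22d3, Zbtb16 and Klf9 in each tissue, with points for the 3 libraries per time and lines through their means for normoxia and IH. Tsc22d3 and Fkbp5 crest between 10:30 and 16:30 h in most panels under both treatments.

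Zbtb16 had relative amplitudes of 64.7% to 87.2% in lung, kidney and heart, above those of Fkbp5 and Tsc22d3 there, and of 9.83% to 64.2% in liver, muscle and cerebellum, below those of Fkbp5. In the normoxic lung it read 57, 36.6 and 30.3 TPM at 13:30 h and 5.12, 4.55 and 3.21 at 22:30 h, a ratio of 9.62. The rank test gave an adjusted p of 0.081 there. In the heart after IH it read 19.4, 13.0 and 33.5 TPM at 13:30 h and 4.14, 1.56 and 3.95 at 1:30 h, and it was rhythmic (adjusted p = 0.0017). Its heart peak was fitted at 13.4 h.

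Klf9 was rhythmic in the normoxic lung, with a fitted peak at 10.2 ± 0.68 h and 89.5, 96.7 and 83.2 TPM at 10:30 h. In the liver the fitted peak lay at 5.75 h in normoxia and 4.69 h after IH, with cosine p-values of 0.0041 and 0.010 and no call by the rank test. Sgk1 was rhythmic in the normoxic kidney with a peak at 15.9 h, and read 40.4, 50.2 and 41.6 TPM at 16:30 h against 27.6, 17.4 and 12.9 at 1:30 h. Dusp1 was rhythmic in the normoxic liver and in the muscle after IH, with peaks at 16.6 and 11.3 h. Hsd11b1 was rhythmic in the normoxic lung alone, where its relative amplitude was 20.5%.

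The receptor gene passed the rhythm rule in no tissue. The relative amplitude of Nr3c1 lay between 3.92% and 15.2% in the 12 groups, and its smallest cosine p was 0.146. By the cosine p alone, 27 of the 48 pairs passed under each treatment, and none of these was Nr3c1. The share of all genes that passed by it was not counted.

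Clock genes set the reference for these times. Among genes past the rhythm rule, fitted peaks lay at 5.07 to 6.99 h for Nr1d1, at 8.17 to 10.2 h for Dbp and at 12.3 to 14.6 h for Per2. The Tsc22d3 and Fkbp5 peaks thus lay near or after those of Per2. In the cerebellum Arntl, Nr1d1 and Per2 did not pass either, and Dbp passed after IH only.

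**Figure D4:**
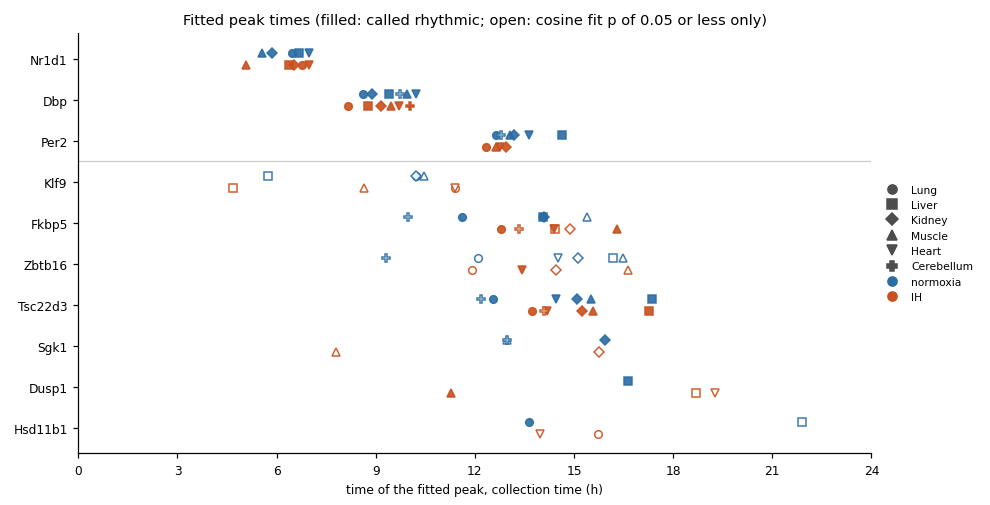
Fitted peak time in hours (horizontal) of the members and of the clock genes Nr1d1, Dbp and Per2 (vertical) in each tissue, with colors for treatment and filled points where the profile passed the rhythm rule. Nr1d1 peaks between 5.07 and 6.99 h and Tsc22d3 between 12.5 and 17.4 h among filled points.

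A call under one treatment and not under the other is no test of a difference, so the change of rhythm was tested directly. The interaction of treatment with the cosine terms passed for 0 of the 48 pairs, and for 0% of the 80157 gene and tissue pairs tested, in limma. At an unadjusted p of 0.05 or less there was 1 member, Sgk1 in the muscle (p = 0.043), whose fitted peak was 13.0 h in normoxia and 7.80 h after IH. Among all genes, such a p was held by 683 in the cerebellum, 580 in the muscle, 328 in the kidney, 289 in the lung, 86 in the liver and 72 in the heart.

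For pairs rhythmic in both treatments, the mean, amplitude and peak time of the fitted curves were compared on TPM. The mean of Tsc22d3 in the muscle was 143 TPM in normoxia and 179 after IH, a difference of 36.8 ± 7.27 (SE, adjusted p = 0.00037), and IH was higher at 8 of 8 times. In the heart it was higher by 13.8 ± 4.73 TPM (adjusted p = 0.015), and Fkbp5 in the lung was higher by 6.52 ± 2.74 TPM (adjusted p = 0.038). Those 3 of 6 pairs stand against 28.7% of 727 gene and tissue pairs whose mean differed. That share was uneven among tissues. The mean differed for most such genes in the lung and for 20 of 39 in the heart. It differed for 9 of 85 in the muscle, 73 of 335 in the liver and 5 of 96 in the kidney. The pooled share is therefore no measure of an excess among members, which was not tested. No member differed in amplitude or peak time, against 2.06% and 0% of the 727 pairs. Tsc22d3 peaked 0.05 ± 0.63 h later after IH in the muscle and 1.20 ± 0.94 h later in the lung. These curve means do not scale the libraries, and on scaled log2 values Tsc22d3 in the muscle differed by 0.25 ± 0.13 (adjusted p = 0.23), or by 0.25 ± 0.05 with time as a further term (adjusted p = 0.0014).

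Replicates of the same time differed more for Fkbp5 and Zbtb16 than for most genes. In the lung the SD between replicates was 1.08 on the log2 scale for Zbtb16 and 0.60 for Fkbp5, against a median of 0.26 over 15426 genes, and 1.58% and 6.02% of genes spread more. In the kidney 2.10% and 4.21% of genes spread more than Zbtb16 and Fkbp5. For Nr3c1 the share was 73.9% in the kidney and 99.0% in the cerebellum. Libraries high for one were high for the other: deviations of Fkbp5 and Zbtb16 from their time means correlated at 0.41 to 0.76 within the 6 tissues (48 libraries each), a description since both values share a library. Of the 28 pairs of members, Fkbp5 with Zbtb16, Tsc22d3 with Sgk1 (0.06 to 0.69) and Nr3c1 with Zbtb16 (0.08 to 0.47) were above 0 in all 6 tissues. Tsc22d3 with Zbtb16 ran from -0.31 to 0.37, and Nr3c1 with Tsc22d3 from -0.59 to 0.29.

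Profiles over the day were compared between genes. Over the 96 means of tissue, treatment and time, centered within tissue, the gene most like Fkbp5 among 9875 was Zbtb16 (r = 0.81), followed by Tsc22d3 (0.78) and the cell cycle kinase gene Wee1 (0.78). For Zbtb16 the order was Fkbp5, the clock gene Per2 (0.76) and the DNA polymerase gene Rev1 (0.72). For Tsc22d3 it was Fkbp5, the sulfotransferase gene Sult1a1 (0.76) and Ankrd9 (0.72), with Zbtb16 at place 4 (0.71). Klf9 was most like Fbxo21 (0.65), Klf15 (0.65) and Zranb1 (0.63), and Sgk1 was most like Ier3 (0.54). Dusp1 was most like 4833439L19Rik (0.63), and Hsd11b1 was most like Hsd17b12 (0.73). For Nr3c1 the first was Atp13a3 (0.75), and its likeness to Fkbp5, Tsc22d3 and Zbtb16 was 0.25, 0.05 and 0.15.

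Libraries of different tissues with the same treatment, time and replicate number deviated together for 6 of the 8 members. Deviations from the time mean were correlated over 48 labels in each of 15 tissue pairs, a comparison added after the values were seen. The mean r was 0.33 for Tsc22d3, 0.32 for Zbtb16 and 0.29 for Fkbp5, with mean rho of 0.33, 0.33 and 0.36 (adjusted permutation p = 2.7e-05 for each r and 2e-05 for each rho, from the smallest p that 100000 resamples can give). Dusp1 had 0.24 (rho 0.25, adjusted permutation p = 6e-05), Klf9 and Sgk1 had 0.16 each (rho 0.17 and 0.15, adjusted permutation p = 0.0031 and 0.0012). Nr3c1 had 0.01 and Hsd11b1 -0.05, with rho of 0.00 and -0.04 (adjusted permutation p = 0.76 and 0.40). The median over 9876 genes was 0.0069, and 0.203%, 0.243% and 0.415% of genes reached the values of Tsc22d3, Zbtb16 and Fkbp5. Each mean was also taken without the 2 labels whose deviation, averaged over the 6 tissues, was largest in size for that gene. Those of Tsc22d3, Zbtb16 and Fkbp5 were then 0.25, 0.28 and 0.22, that of Dusp1 was 0.22, and those of Klf9 and Sgk1 were 0.10 each. Within a replicate number the means of Tsc22d3, Zbtb16 and Fkbp5 were 0.25, 0.35 and 0.25. In normoxia they were 0.15, 0.21 and 0.11, and after IH 0.43, 0.42 and 0.53, and the difference between treatments was not tested. The labels do not record whether such libraries share a mouse.

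**Figure D5:**
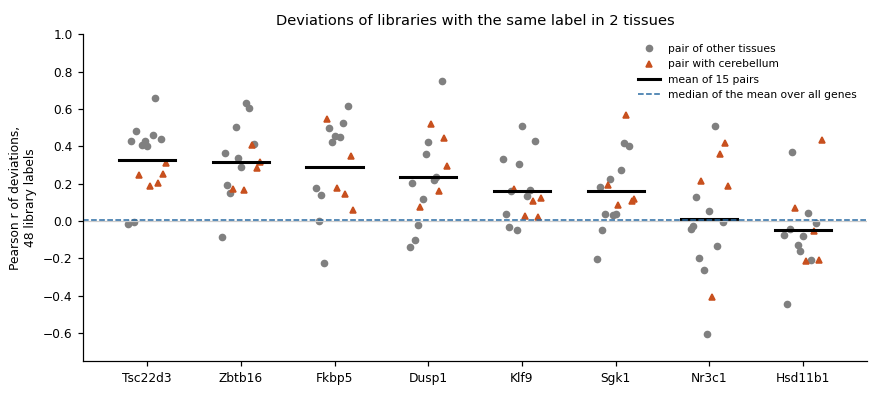
Correlation r of same-label deviations (vertical) for each gene (horizontal), 1 point per pair of tissues and a bar at the mean of the 15 pairs. Tsc22d3, Zbtb16 and Fkbp5 have means of 0.33, 0.32 and 0.29, and Nr3c1 and Hsd11b1 lie around 0.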

How the data were processed

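RNA of 6 tissues was sequenced in 24 libraries per tissue and treatment. Per the labels the authors used bcl2fastq, FastQC 0.11.3, kallisto, DESeq2 and mm10, and the study gives Ensembl transcripts as the reference. The deposited values are TPM per gene as the authors wrote them, with library sums of 989211 to 999188. TPM keep no read depth, so depth and counting error are unknown. Of the columns, 0 were not used.

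TPM were scaled per tissue by medians of ratios, and log2(TPM + 0.5) of genes with a mean of 1 TPM or more was fitted in limma 3.58.1 (R 4.3.3) with treatment as the term, adjusted over all genes by Benjamini-Hochberg. Rhythms were tested on TPM as deposited by a JTK rank test (genes with a maximum of 1 TPM or more) and cosine fits of 24 h. Tissue levels were compared by 2-sided permutation tests with 100000 resamples. The limma fits within a tissue and the rhythm tests were tried on simulated data. All 8 members are named, with at most 3 changed genes per list and tissue and the 3 genes of closest profile; 1 gene of the lists is not reported here. Members and lists were chosen with earlier results of these data known. Replicates are separate animals per the study, and p-values measure the spread between these libraries. Samples with one replicate number correlated above 0.1 in 5 to 16 of 24 pairs by tissue, so numbers were not taken as pairs.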

Additional observations from a re-analysis of the deposited data

Results flagged for a closer look

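The IH response of 4 members differed between the 6 tissues by limma F tests of the interaction of treatment with tissue. The log2 differences given here come from the separate fits within each tissue, scaled by tissue, whereas the F tests used all libraries scaled together. Hsd11b1 had an adjusted p of 4.2e-06, with log2 differences of -0.42 in the kidney and 0.37 in the heart. Nr3c1 had an adjusted p of 8.0e-05, with -0.12 in the lung and 0.23 in the heart. For Sgk1 it was 0.00097, with -0.34 in the lung, and for Klf9 it was 0.00614, with 0.32 in the heart. Across all genes 82.3% passed this test. On TPM as deposited 2 of the 4 passed.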

How the results depend on the processing

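Counts of members changed by IH were 0 in each tissue, and moved to 2 in the lung on TPM as deposited (Fkbp5 and Zbtb16), to 1 there with time (Zbtb16) or the number of genes detected (Fkbp5) as a further term, and to 1 in the heart with genes detected (Hsd11b1). Leaving out a replicate gave 0 to 1 in liver and heart (1 without replicate 3), kidney and muscle (1 without replicate 1). The 12 rhythmic pairs in normoxia became 20 with JTK and Lomb-Scargle combined and 19 with a limma cosine fit, and the 10 after IH became 19 and 19. The combined rule also passed more of all genes, as in the normoxic lung (564 to 1881) and the normoxic kidney (875 to 2381). Leaving out a replicate gave 2 to 4 in normoxia and 2 to 2 after IH, from 16 libraries each. Members whose response differed between tissues fell from 4 to 2 on TPM as deposited and to 2 without replicate 2. With the replicate block, rhythmic pairs in the limma cosine fit numbered 20 and 21, and no IH call of a member changed. The scaling moved the median of all lung genes from -0.08 to 0.21, of liver genes from -0.01 to -0.12 and of heart genes from 0.04 to 0.15. Lung signs turned on TPM as deposited for Dusp1 (0.25), Hsd11b1 (0.0022), Klf9 (0.27) and Nr3c1 (0.18). With genes detected as a term, a number that itself differed between treatments, they turned for Hsd11b1 (0.28), Hsp90aa1 (0.21), Nr3c1 (0.13) and Stip1 (0.21). In replicate 3 alone they turned for Nr3c1 in the lung (0.080) and for Cyp3a11 (0.048) in the liver. Replicates alone and the settings without libraries that stand apart were added after seeing the data. The causes were not tested. Of all alternative values of single genes, 1379 kept their side of the threshold, 98 lost it, 69 gained it and 10 turned sign. Of the alternative counts, 82 stayed equal or within 1.5 times and 22 moved further. Read depth cannot be judged from TPM.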
